A study of Mus musculus with 2 samples.

Results

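Chromatin accessibility around 10 genes of the myeloid lineage was examined in B cells of the mouse spleen. The genes were chosen by name as well-known markers and regulators of granulocytes, monocytes and macrophages, and they are 10 of the 22350 protein-coding genes of the annotation. They comprise the transcription factors Cebpa and Cebpb, the receptors Csf1r, Csf3r and Cd14, and the granule or secreted proteins Lyz2, Mpo, Elane, S100a8 and Ltf. The cells came from C57/Bl6 animals of 8 weeks with the genotype Trp53+/+ and mock treatment, and were enriched from whole spleen with magnetic beads against B220, a surface form of CD45 found on B cells. Nuclei were digested with DNase I, which cuts open chromatin first, the small fragments were sequenced, and enriched regions were called as DNase I hypersensitive sites (DHS). In the study the map served to describe the chromatin at binding sites of the tumour suppressor p53 in cells that had not been irradiated. The 2 samples of the series are this DNaseI library and an input library, and both share strain, genotype and treatment. Only the DNaseI library comes with a processed file, which is 1 list of peaks, so that there is no replicate and no second condition.

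All comparisons below are therefore descriptions of 1 library, without p-values, and the number of animals behind it is not given. Each DHS carries a score from the peak caller, whose scale is not stated, with a median of 32.65 over 47474 DHS on chromosomes 1 to 19 and X. The depth of sequencing is unknown, and a region without a DHS is one where none was called. The enrichment by B220 can leave other spleen cells in the preparation. Before digestion dying cells were taken out on a Ficoll gradient, a step that is also known to remove dense granulocytes. How many myeloid cells remained was not measured. A weak DHS from weak opening in most cells and one from strong opening in a small share of cells cannot be told apart.

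Myeloid cells arise from progenitors in the bone marrow, where the Ets family factor PU.1 and the C/EBP factors open and activate the genes of granulocytes and monocytes. Receptors for the colony-stimulating factors carry the survival and growth signals of these cells. Their granules hold enzymes and iron-binding proteins that kill microbes. B cells share PU.1 with the myeloid lineage but do not rely on C/EBP alpha, and forced expression of C/EBP alpha or C/EBP beta is known to turn B cells into macrophage-like cells.

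For each gene the DHS that overlapped the gene body or the 20 kb on either side by at least 1 bp were collected. All 10 genes had at least 1 DHS in this window, where 70.9% of all protein-coding genes had one. With DHS at or above the median score only, it was 5 of 10 against 64.0%. The windows held 30 DHS in total, and no DHS was counted for more than 1 gene. When each DHS was assigned to the transcription start site (TSS) nearest to its centre, 14 were nearest to a TSS of the myeloid gene itself and 16 to a TSS of another gene. The median number of own DHS per window was 1 for the 10 genes and 1 for all protein-coding genes. DHS of their own by this rule were found at 7 of the 10 genes, against 58.0% of all protein-coding genes. The exceptions were Mpo, S100a8 and Ltf.

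**Figure D1:**
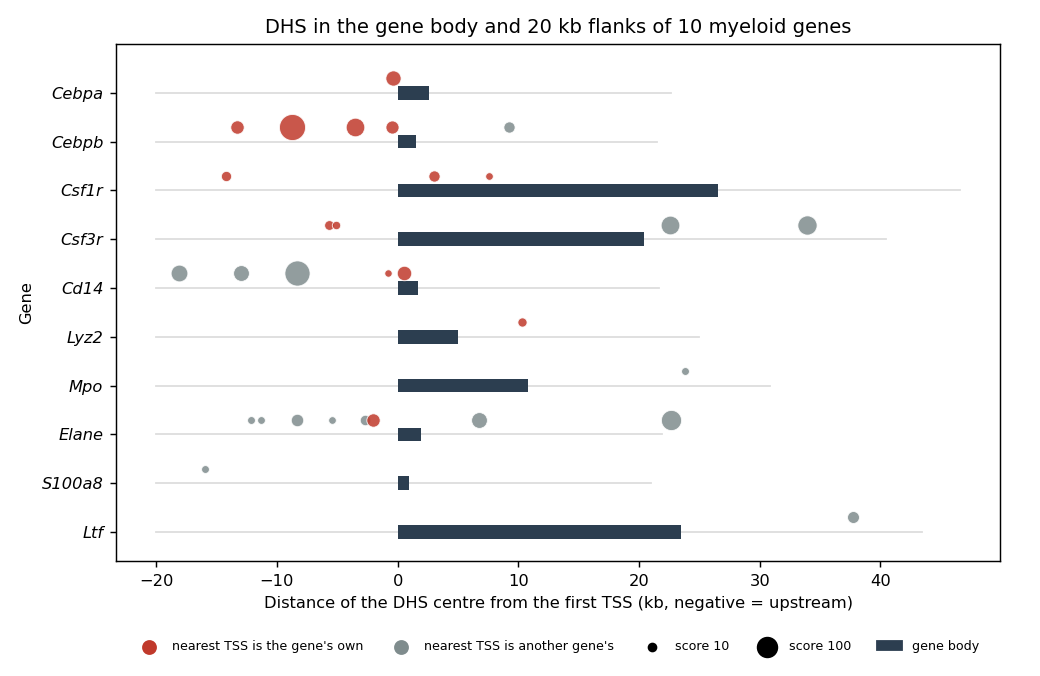
Position of the 30 DHS in the windows of the 10 genes. The horizontal axis is the distance of the DHS centre from the first TSS of the gene in kb, grey lines are the windows, dark bars are gene bodies, and the area of each point grows with the authors' score. Red points are DHS whose nearest TSS is the gene's own and grey points those of another gene. Mpo, S100a8 and Ltf have grey points only, and Cebpb has 4 red points on its upstream side.

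The number of DHS per window had the same median as over all genes. This median was 2 for the 10 genes and 2 for all protein-coding genes, with quartiles of 0 and 5 in the latter. The medians were 0.5 and 1 with DHS at or above the median score only, 0 and 1 for the gene body alone, and 6 and 5 with flanks of 50 kb, so that their order depended on the window and the threshold. Exactly 1 DHS was found in the windows of Cebpa, Lyz2, Mpo, S100a8 and Ltf, a count shared by 10.6% of all genes. The windows of Csf1r, Csf3r, Cebpb and Cd14 held 3, 4, 5 and 5 DHS, and that of Elane held 8. Counted per 100 kb of window, to allow for gene length, the values ran from 1.58 at Ltf to 19.1 at Elane, with a median of 3.47 against 3.34 for all genes. The score of the 30 DHS had a median of 34.1, close to the 32.65 of the whole list.

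**Figure D2:**
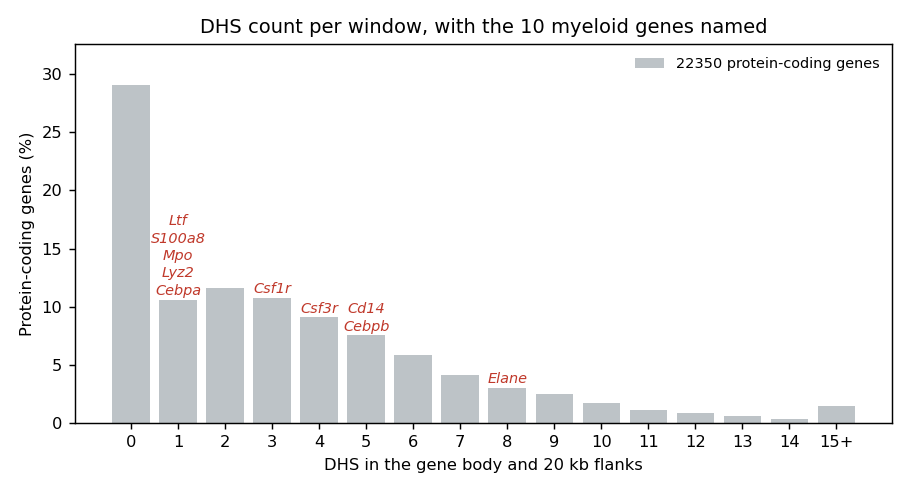
Number of DHS in the gene body and 20 kb flanks. Bars give the percentage of the 22350 protein-coding genes with each count, and the 10 myeloid genes are named above their own count. Of all genes 39.7% had 1 DHS or none, and Elane with 8 DHS stands highest of the 10.

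A promoter was taken as the 5 kb upstream and 2 kb downstream of a TSS. DHS in this region were found at 5 of the 10 genes (50%, exact 95% binomial interval 18.7 to 81.3, counting error only), which were Cebpa, Cebpb, Csf3r, Cd14 and Elane. The share among all protein-coding genes was 57.0%. Promoters rich in CpG dinucleotides are often open in many cell types, and only Cebpa and Cebpb among the 10 had such a promoter. Both had a promoter DHS, where 85.5% of CpG-rich promoters had one. Of the other 8 genes 3 had a promoter DHS, where 39.2% of promoters of that kind had one. The counts of the myeloid genes were thus near the background of their promoter class.

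Closer to the TSS fewer of the genes had a DHS. A DHS lay over an annotated TSS at 2 of the 10 genes, Cebpa and Cd14, against 46.6% of all protein-coding genes. By promoter class this was 1 of 2 CpG-rich promoters, with a background of 74.0%, and 1 of 8 others, with a background of 29.4%. Within 1 kb on each side of a TSS a DHS was found at 3 genes, the third being Cebpb, against 53.7% of all genes. At Csf3r the promoter DHS only reached the far edge of the promoter region, and at Elane it was centred 2.08 kb upstream. The gene body itself was overlapped by a DHS at 3 genes, Cebpa, Csf1r and Cd14, against 57.9% of all genes. The distance from the first TSS to the edge of the closest DHS had a median of 3637 bp over the 10 genes and 565 bp over all genes.

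**Figure D3:**
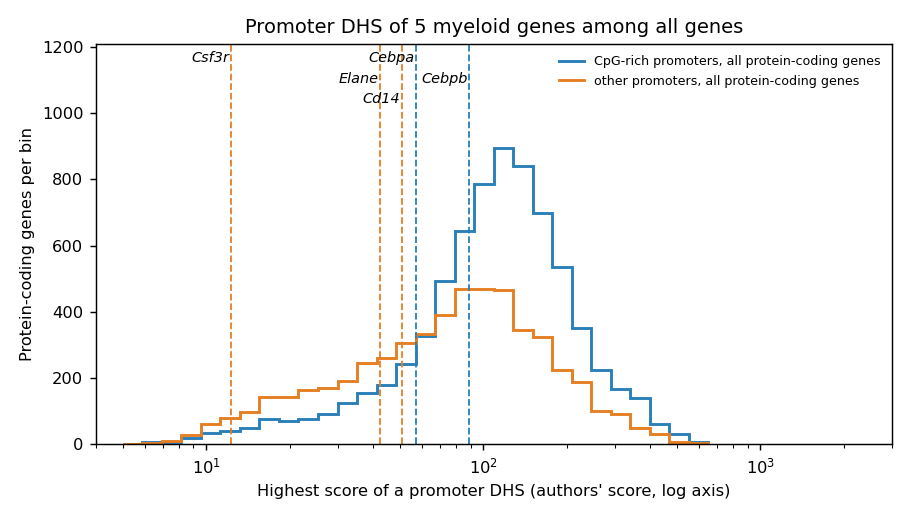
Highest score of a promoter DHS. The lines are histograms over all protein-coding genes with a promoter DHS, blue for CpG-rich and orange for other promoters, on a logarithmic axis of the authors' score. Dashed lines mark the 5 myeloid genes that had one, from 12.3 at Csf3r to 89.1 at Cebpb, all below the median of 101 over all such genes.

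The scores of the promoter DHS were below the median of other genes. The highest promoter score was 89.1 at Cebpb, 57.3 at Cebpa, 51.1 at Cd14, 42.5 at Elane and 12.3 at Csf3r. These lay between percentile 1.78 (Csf3r) and percentile 42.4 (Cebpb) of the 12747 protein-coding genes with a promoter DHS, whose median was 101. Within promoter class, Cebpa and Cebpb were under the median of 114 for CpG-rich promoters, and Csf3r, Cd14 and Elane were under the median of 81.4 for the others. Cebpa and Csf3r were also under the lower quartile of their class (75.6 and 41.6), while Cebpb, Cd14 and Elane were above it.

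Both transcription factor genes had a promoter DHS, where 85.5% of CpG-rich promoters, as theirs are, had one. Both also had own DHS, against 58.0% of all protein-coding genes. Cebpa encodes C/EBP alpha, which is required for the formation of granulocytes. The gene lies on chromosome 7 (35904312 to 35906945, plus strand, mm9, ENSMUSG00000034957.9). Its window held 1 DHS, at 35903248 to 35904648, which was 1401 bp wide, had a score of 57.3 (percentile 69.3 of all DHS) and covered the TSS. In the next 30 kb on either side only 1 more DHS was found, with a score of 46.6 at 50.3 kb downstream of the TSS, and its nearest TSS was that of Slc7a10, an amino acid transporter. The region in between, where a distal enhancer of Cebpa is known in myeloid progenitors, held no called DHS.

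Cebpb encodes C/EBP beta, a factor of macrophages and of emergency granulocyte production that is also used outside the blood. It lies on chromosome 2 (167514415 to 167515918, plus strand, ENSMUSG00000056501.3) and had the most own DHS of the 10 genes, with 4, or 13 assigned over any distance where only TSSs of coding transcripts were used. All 4 own DHS in the window were upstream and at or above the median score of the list. The one nearest to the TSS, at 167513763 to 167514178, had a score of 40.5 and ended 237 bp before it. The next, at 167510304 to 167511520, had a score of 89.1 with its centre 3.50 kb upstream. The strongest DHS of all 30 followed at 167504611 to 167506761, with a score of 183 (percentile 95.6) and a centre 8.73 kb upstream. The farthest, at 167500848 to 167501420, had a score of 42.7 with its centre 13.3 kb upstream. All 4 centres also lie in intron 1 of the longest transcript of Tmem189, a gene on the opposite strand whose annotated 5′ end lies within Cebpb. This 5′ end and the TSS of Cebpb are thus close together, and the rule of the nearest TSS separates the genes poorly here. Tmem189 also has annotated TSSs elsewhere, since the DHS called from 27.8 to 47.9 kb upstream of Cebpb were nearest to it. The fifth DHS in the window, at 167523193 to 167524112, had a score of 27.9 and was nearest to A530013C23Rik.

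The sequence before the start sites shows the CpG content that sets these genes apart from the other 8. Given here are the 250 bases upstream of the TSS on mm9, 5′ to 3′ on the strand of the gene, with CG dinucleotides in capitals. At Cebpa (chr7:35904062-35904311) they hold 22 CG dinucleotides and lie within the DHS. At Cebpb (chr2:167514165-167514414) they hold 41 and only their first bases are covered by a DHS.
Cebpa promoter: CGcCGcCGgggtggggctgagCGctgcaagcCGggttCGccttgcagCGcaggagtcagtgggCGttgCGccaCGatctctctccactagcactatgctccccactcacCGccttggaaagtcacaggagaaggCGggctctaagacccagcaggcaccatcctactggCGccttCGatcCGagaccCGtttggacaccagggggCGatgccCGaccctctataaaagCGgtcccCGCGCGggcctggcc
Cebpb promoter: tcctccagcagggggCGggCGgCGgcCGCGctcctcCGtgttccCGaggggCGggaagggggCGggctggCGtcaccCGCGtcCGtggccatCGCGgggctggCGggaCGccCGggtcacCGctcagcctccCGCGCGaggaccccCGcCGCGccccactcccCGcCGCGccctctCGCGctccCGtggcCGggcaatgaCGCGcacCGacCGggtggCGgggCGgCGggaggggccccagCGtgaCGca

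For the upstream DHS of Cebpb the central 300 bases are shown, plus strand, since these carry the highest score of the set and 3 RUNX words. The DHS at 79340100 to 79341308 in the Elane window, assigned to Prtn3, also holds 3 in its centre. RUNX factors act in several blood lineages, and capitals mark the word TGTGGT on either strand. The DHS 8.73 kb upstream (shown chr2:167505537-167505836) holds none in its centre. The DHS 13.3 kb upstream (shown chr2:167500985-167501284) holds 3.
Cebpb DHS 8.73 kb upstream: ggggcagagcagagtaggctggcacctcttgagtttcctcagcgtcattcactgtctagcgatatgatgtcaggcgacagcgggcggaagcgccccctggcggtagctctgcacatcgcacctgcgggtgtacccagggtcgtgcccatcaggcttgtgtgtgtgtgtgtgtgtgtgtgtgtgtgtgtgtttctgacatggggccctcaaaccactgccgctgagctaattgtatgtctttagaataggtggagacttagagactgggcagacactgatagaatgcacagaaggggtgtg
Cebpb DHS 13.3 kb upstream: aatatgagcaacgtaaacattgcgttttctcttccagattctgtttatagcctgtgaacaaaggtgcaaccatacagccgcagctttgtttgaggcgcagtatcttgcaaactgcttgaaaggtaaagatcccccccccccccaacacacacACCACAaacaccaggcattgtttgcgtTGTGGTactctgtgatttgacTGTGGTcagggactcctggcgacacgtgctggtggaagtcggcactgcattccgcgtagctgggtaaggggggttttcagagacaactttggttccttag

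Among the granule and secreted proteins, none of which has a CpG-rich promoter, 1 of 5 had a promoter DHS, where 39.2% of such promoters had one. Own DHS were found at 2 of 5, against 58.0% of all protein-coding genes. Elane encodes neutrophil elastase and lies on chromosome 10 (79349057 to 79350961, plus strand, ENSMUSG00000020125.6) beside Prtn3, the gene of proteinase 3, and Cfd, the gene of complement factor D. Its window was the richest, but 7 of its 8 DHS were nearest to other genes. Those 7 were assigned to BC005764 (scores 9.86 and 9.44), Prtn3 (35.8, 9.01 and 23.2), Cfd (62.3) and Med16, a subunit of the Mediator complex (106). The own DHS, at 79346611 to 79347347, had a score of 42.5 (percentile 59.8) and was centred 2.08 kb upstream of the TSS, in the stretch between Prtn3 and Elane. It lay directly beside the Prtn3-assigned DHS at 79346168 to 79346548, with which it is the pair of DHS in the Elane promoter region. The TSS of Elane was 1710 bp from the nearest DHS edge.

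Lyz2 encodes lysozyme M of macrophages and granulocytes. It lies on chromosome 10 (116714390 to 116719377, minus strand, ENSMUSG00000069516.6) and had 1 DHS, at 116708876 to 116709214, with a score of 16.3 (percentile 21.0) and a centre 10.3 kb downstream of the TSS, beyond the end of the gene. Lyz1, which lies next to it, is a close copy, and how reads shared between the copies were treated is not given in the sources used here, so that the absence of a DHS at Lyz2 is uncertain. The next DHS on the upstream side, with scores of 11.9 and 24.4 at 41.4 and 41.95 kb, were nearest to Lyz1.

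No own DHS was called at the remaining 3 genes. Mpo encodes myeloperoxidase, the main enzyme of the primary granules, and lies on chromosome 11 (87607083 to 87617915, plus strand, ENSMUSG00000009350.7). The 1 DHS in its window, at 87630762 to 87631099, had a score of 9.93 (percentile 4.496) and was 77 bp from a TSS of Lpo, which encodes lactoperoxidase. Just outside the window the region changed. Between 20 and 50 kb from Mpo there were 7 DHS with scores from 39.8 to 447, the highest at 87567090 to 87568907, and the 1 on the downstream side was nearest to Mks1. The 6 on the upstream side were nearest to Supt4h1, A430104N18Rik, Bzrap1 and Mir142, the locus of a microRNA of blood cells. None of these 7 was nearest to Mpo.

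S100a8 encodes a subunit of calprotectin, an abundant protein of neutrophils, and lies on chromosome 3 (90472993 to 90473956, plus strand, ENSMUSG00000056054.8). The DHS in its window, at 90456715 to 90457353, had a score of 9.82 (percentile 4.24) and was nearest to S100a7a, another member of the S100 cluster. Ltf encodes lactoferrin, the iron-binding protein of secondary granules, and lies on chromosome 9 (110921796 to 110945270, plus strand, ENSMUSG00000032496.3). Its DHS, at 110958320 to 110960759, had a score of 32.5 (percentile 49.8) and was centred 235 bp from a TSS of Ccrl2, a chemokine receptor-like gene. The TSSs of Mpo, S100a8 and Ltf were 21.8, 15.6 and 21.4 kb from the nearest DHS edge.

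The 250 bases upstream of the TSS of Mpo, Elane, S100a8 and Ltf are given next, as the promoters of the 10 genes that hold a PU.1 or C/EBP word. None of them lay under a DHS. Each is on mm9 and on the plus strand, which is the strand of all 4 genes. Capitals mark the PU.1 word GAGGAAGT, the C/EBP word TTGCNNAA and the RUNX word TGTGGT, each on either strand. The PU.1 word begins 21 bases before the TSS in Mpo (chr11:87606833-87607082), 85 before it in Elane (chr10:79348807-79349056) and 172 before it in S100a8 (chr3:90472743-90472992). Mpo also holds a RUNX word 104 bases before the TSS. Ltf (chr9:110921546-110921795) holds a C/EBP word 75 bases before the TSS.
Mpo promoter: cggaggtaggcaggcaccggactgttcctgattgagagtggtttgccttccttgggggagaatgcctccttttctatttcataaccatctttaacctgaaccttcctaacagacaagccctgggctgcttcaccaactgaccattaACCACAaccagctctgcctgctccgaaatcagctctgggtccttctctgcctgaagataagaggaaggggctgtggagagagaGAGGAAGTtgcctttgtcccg
Elane promoter: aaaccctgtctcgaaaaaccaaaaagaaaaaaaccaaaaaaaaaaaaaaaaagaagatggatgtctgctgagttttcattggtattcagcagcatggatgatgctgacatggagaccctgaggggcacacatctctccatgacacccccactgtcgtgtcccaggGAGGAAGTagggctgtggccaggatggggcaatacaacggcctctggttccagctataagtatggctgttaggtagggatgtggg
S100a8 promoter: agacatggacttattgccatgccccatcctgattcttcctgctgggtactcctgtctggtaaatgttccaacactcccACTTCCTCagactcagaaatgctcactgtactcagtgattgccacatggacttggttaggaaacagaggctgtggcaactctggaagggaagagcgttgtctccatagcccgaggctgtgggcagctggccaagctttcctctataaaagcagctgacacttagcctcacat
Ltf promoter: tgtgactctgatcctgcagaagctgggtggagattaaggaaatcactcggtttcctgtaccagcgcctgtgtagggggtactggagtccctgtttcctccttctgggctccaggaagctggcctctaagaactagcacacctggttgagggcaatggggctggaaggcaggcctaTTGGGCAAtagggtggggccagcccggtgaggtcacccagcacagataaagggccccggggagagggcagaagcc

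For comparison the central 300 bases of the own DHS of Elane (chr10:79346830-79347129, plus strand) are shown with the same words in capitals. They hold 1 RUNX word and no PU.1 or C/EBP word.
Elane DHS 2.08 kb upstream: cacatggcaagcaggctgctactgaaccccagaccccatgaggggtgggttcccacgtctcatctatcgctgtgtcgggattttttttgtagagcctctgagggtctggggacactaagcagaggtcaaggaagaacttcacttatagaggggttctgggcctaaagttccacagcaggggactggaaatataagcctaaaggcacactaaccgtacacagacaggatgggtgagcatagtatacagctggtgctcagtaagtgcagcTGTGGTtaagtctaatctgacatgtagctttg

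The words were then counted over all 10 genes, in the 250 bases upstream of each first TSS and on both strands. The PU.1 word was in 3 of the 10 promoters and in 2.24% of all protein-coding promoters of the same length. The C/EBP word was in 1 of 10 against 9.16%, and the RUNX word in 2 of 10 (Lyz2 and Mpo) against 12.7%. The AP-1 word TGANTCA was in 2 of 10 (Csf1r and Cd14) against 6.004%. Words of factors of B cells and lymphocytes were also searched. The EBF1 word CCCNNGGG was in 2 of 10 (Cebpb and Ltf) against 13.1%, the OCT word ATGCAAAT in 0 of 10 against 1.62%, and the E2A word CAGNTG in 4 of 10 against 42.2%. The genes were few and chosen by name, and no test was made of these counts.

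In the DHS themselves the same words were searched in the central 300 bases, or in the whole DHS where it was shorter. Of the 30 DHS none held the PU.1 word, where 3.61% of all DHS did, but over whole DHS 4 held it, where 8.90% did. In the centres 2 held the C/EBP word, where 10.6% did. Both were DHS in the window of Cd14 that were assigned to its neighbours. The RUNX word was in 7 of 30 against 20.6% of all DHS, the AP-1 word in 1 against 7.62%, the EBF1 word in 6 against 12.7%, the OCT word in 1 against 1.63% and the E2A word in 17 against 56.7%. Among the 14 own DHS the RUNX word was in 5, the E2A word in 7 and the EBF1 word in 2, and none held the PU.1, C/EBP, AP-1 or OCT word. A match in letters does not show that a factor is bound, and a missing match concerns these exact letters only.

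The 3 receptor genes all had own DHS, 7 in total, against 58.0% of all protein-coding genes with one. A promoter DHS was found at 2 of them, against 39.2% of promoters that are not CpG-rich, as theirs are not. Cd14 encodes a co-receptor for bacterial lipopolysaccharide on monocytes and macrophages. It lies on chromosome 18 (36884728 to 36886390, minus strand, ENSMUSG00000051439.6) and was the only gene besides Cebpa with a DHS over its TSS. That DHS, at 36884988 to 36886670, was 1683 bp wide, spanned nearly the whole gene and had a score of 51.1 (percentile 65.8). A second own DHS, at 36887048 to 36887392, had a score of 8.06 (percentile 1.31), the lowest of the 30. The other 3 in the window were nearest to Tmco6 (scores 169 and 62.4) and Ik (70.9), with the strongest of them centred 23 bp from a TSS of Tmco6.

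Csf1r encodes the receptor for macrophage colony-stimulating factor and defines monocytes and macrophages. It lies on chromosome 18 (61265226 to 61291803, plus strand, ENSMUSG00000024621.8). Its window held 3 DHS, all own and all below the median score. None was in a promoter. The highest, at 61267568 to 61268834, had a score of 27.9 (percentile 44.0) and lay in intron 1 of the longest annotated transcript, 2.98 kb after the first TSS. A conserved intronic enhancer near the start of Csf1r is known in macrophages, and whether this DHS lies over it was not examined. A further DHS in intron 5, at 61272602 to 61272989, had a score of 8.94 (percentile 2.61). The third, at 61250180 to 61251780, had a score of 22.0 (percentile 34.0) and was centred 14.2 kb upstream.

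Csf3r encodes the receptor for granulocyte colony-stimulating factor. It lies on chromosome 4 (125701794 to 125722219, plus strand, ENSMUSG00000028859.7), and its gene body overlapped no DHS. The pair of own DHS in its window, at 125695914 to 125696309 and 125696528 to 125696863, had scores of 19.2 (percentile 28.1) and 12.3 (percentile 10.4) and were centred 5.68 and 5.10 kb upstream. The second reached into the promoter region from its far end. Another own DHS, outside the window, had a score of 20.98 at 34.0 kb upstream, so that 15 DHS of the list had a TSS of the 10 genes as the nearest. The strong DHS in the window were those over the starts of the neighbours Mrps15, a mitochondrial ribosomal protein (90.1), and Oscp1 (96.0).

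Of the 14 own DHS 7 were at or above the median score of 32.65. Cebpb alone held 4 of these 7, all in the region shared with Tmem189, and the others were 1 each at Cebpa, Cd14 and Elane. Own DHS at Csf1r, Csf3r and Lyz2 were all below the median. Over the 14 own DHS the median score was 34.2 and the median width 655 bp, and over the 16 DHS of neighbours they were 34.1 and 947 bp. In the whole list the median width was 760 bp. Of the 14 own DHS, 7 were in a promoter, 4 in an intron and 3 between genes, near the 47.5%, 21.7% and 25.7% of all DHS. Of all 30 DHS in the windows 22 were in a promoter of some gene. The windows were drawn around genes, so the share of the whole list is no like background for that count.

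Further genes of the lineage, and markers of the cell types that a spleen preparation could hold, were examined by the same rules. The shares below stand beside the 57.0% of all protein-coding genes with a promoter DHS, and the 85.5% and 39.2% of those with CpG-rich and other promoters. Of 8 other myeloid regulators 7 had a promoter DHS (87.5%, 47.3 to 99.7), with a median highest score of 120. Several of these regulators, PU.1 (Spi1), Irf8 and Runx1 among them, are also known to act in B cells. Of 18 other receptors and surface proteins of myeloid cells 9 had one (50%, 26.0 to 74.0), with a median of 39.9 and a range from 16.3 to 238.5. Of 13 other granule and secreted proteins 4 had one (30.8%, 9.09 to 61.4), namely Prtn3 (35.8), the proteases Mmp8 (13.8) and Mmp9 (48.7), and the chitinase-like Chi3l3 (38.5). The 1 DHS in the window of Chi3l3 was nearest to a TSS of another gene. Within 1 kb of a TSS Mmp8 and Chi3l3 had none, and the highest score of Prtn3 was 9.86. None of these receptors and surface proteins has a CpG-rich promoter, and of the granule and secreted proteins only Prtn3 has one. The 39.2% is therefore the nearer background for both lists. The intervals are wide and give counting error only, for genes chosen by name, so no difference from a background was tested.

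The labelled cell type was checked with 12 B cell genes, among them Cd79a, Ms4a1 and Pax5. All 12 had a promoter DHS and a DHS over a TSS, with highest promoter scores from 72.1 to 332 and a median of 143. The highest promoter score of the 10 myeloid genes, 89.1 at Cebpb, was above that of 2 of the 12 B cell genes, and the other 4 were below all of them. The windows of the B cell genes held a median of 8.5 DHS.

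**Figure D4:**
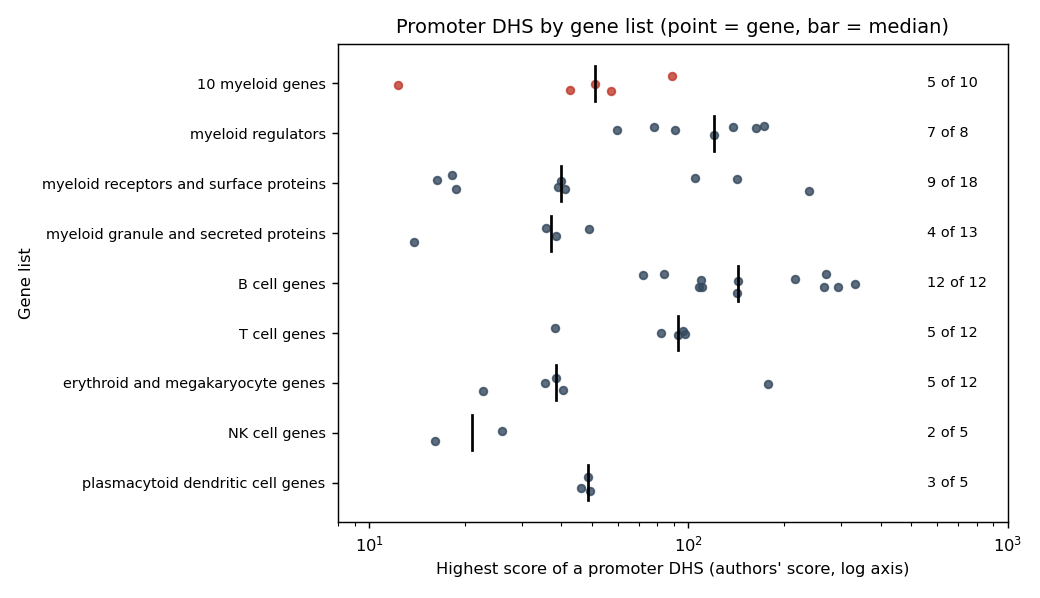
Highest score of a promoter DHS by gene list, on a logarithmic axis of the authors' score. Each point is a gene with a promoter DHS, red for the 10 myeloid genes, black bars are medians, vertical offsets within a list carry no meaning, and the text at the right gives how many genes of each list had one. The B cell genes stand at 72.1 and above, while 4 of the 5 myeloid points are at 57.3 or below.

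The shares of the lists of other lineages ran from 40% to 60%, beside 50% of the 10 myeloid genes. The intervals are too wide to show likeness to the 10 genes or difference from them. Of 12 T cell genes 5 had a promoter DHS (41.7%, 15.2 to 72.3), which were Lck, Cd2, Cd5, Gata3 and Tcf7, with a median highest score of 92.8. Cd3e, Cd3d, Cd3g, Cd4, Cd8a, Cd8b1 and Zap70 had none. Of 12 genes of erythroid cells and megakaryocytes 5 had one (41.7%, 15.2 to 72.3), among them Klf1, Tal1, Nfe2 and Itga2b, with a median of 38.5. Of 5 genes of natural killer cells 2 had one (40%, 5.27 to 85.3), with scores of 16.1 and 25.96, and Ncr1, Nkg7 and Gzma had none. Of 5 genes of plasmacytoid dendritic cells, which carry B220 and can pass the selection, 3 had one (60%, 14.7 to 94.7), with scores from 46.1 to 49.3, and Siglech and Klk1 had none. The part of other cells in any of these DHS was not tested.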

How the data were processed

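Of the 2 samples, the DNaseI library has 1 processed file, a list of 47542 peaks with the authors' score per peak. The submitters' processing notes name BWA 0.6.2, SAMtools and the build mm9, and the deposited peak names are those of MACS. The caller's version and settings for this library, and any read filter, are not given in the sources used here. The study states MACS settings and a base quality mask for its ChIP-seq reads, and whether they apply to this library is not stated. The score, as deposited, was therefore used only to rank and filter peaks within the list. The file holds no read counts, so the depth is unknown, and peaks missed for lack of reads are not distinguished from closed chromatin. Peak ends were compared with the chromosomes of NCBI build 37, and 1 peak passed an end.

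Peaks on chromosomes 1 to 19 and X (47474) were intersected with GENCODE M1 in Python 3.11.15 with pandas 2.3.3 and NumPy 2.4.6, and intervals were computed with SciPy 1.17.1. The overlap functions were tested on simulated data. The promoter of a gene covered 5 kb before and 2 kb after each of its annotated TSSs. The first TSS is the 5′ end of the gene entry. CpG-rich promoters had a GC content of 55% or more and 0.6 or more of the CpG number that base composition predicts, within 500 bp on each side of it. In this release Cebpd is entered as a pseudogene and Gfi1 as a processed transcript, and both were kept in their list. Sequences were read from NCBI build 37.

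The 10 genes, the lists and the words were chosen with earlier results of these data known. Named are the 10 genes, those whose TSS is nearest to a DHS in their windows, and, of every list, the genes without a promoter DHS where fewer than 6 lack one, otherwise those with one where fewer than 6 have one. Slc7a10, Supt4h1, A430104N18Rik, Bzrap1, Mir142, Mks1, Tmem189, Lyz1, Spi1, Irf8, Runx1, Cd79a, Ms4a1 and Pax5 were added as neighbours or examples after values were seen. The T cell genes without a promoter DHS were also named after values were seen. Some genes that the rule names are not reported here. The alternatives were other flanks and promoter windows, a threshold at the median score, counting by the centre of the peak, merged peaks, coding transcripts only, and other lengths of sequence.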

Additional observations from a re-analysis of the deposited data

How the results depend on the processing

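No paired analysis was possible because the series has 1 processed library. A count or median was taken as moved where it changed by more than 1.5 times, the share of a list where it left its binomial interval, and a highest score where it changed at all. By these rules 25 of 76 values under alternatives moved and 51 did not. Genes with a promoter DHS numbered 3 in place of 5 within 1 kb of a TSS, where the highest score of Cebpb was 40.5 in place of 89.1. Without flanks 3 genes, in place of 10, had a DHS, against 57.9% of all genes, the DHS numbered 4 and the median per gene was 0, against 1 for all genes. With 10 kb flanks the DHS numbered 19. With 50 kb flanks they numbered 65, with medians of 6 and 5. At or above the median score 5 genes had a DHS in the window, against 64.0% of all genes, so that the share of the 10 genes passed from above that of all genes (70.9% with every DHS) to below it. The DHS numbered 15, the medians were 0.5 and 1, the DHS nearest to one of the 10 genes numbered 7 in place of 15, and no natural killer cell gene (0%) had a promoter DHS. With coding transcripts only, 25 DHS were nearest to one of the 10 genes, 13 of them to Cebpb. In whole peaks, which are longer, the PU.1 word was in 4 of the 30 DHS against 8.90% of all DHS, which puts it above the share of all DHS rather than below. The C/EBP word was in 6 against 29.0%, the RUNX word in 16 against 45.7%, the AP-1 word in 7 against 21.1%, the EBF1 word in 12 against 30.01% and the E2A word in 25 against 84.0%. In the central 200 bp the RUNX word was in 4 against 14.4%, the AP-1 word in 0 against 5.07% and the EBF1 word in 3 against 8.67%. By peak centre Csf3r had no promoter DHS and the count was 4. Changes that the construction does not fix have no tested cause. The unknown depth limits every statement on a missing DHS.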
